A study of Oncorhynchus mykiss with 3 samples.

Results

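The miR-15, miR-16 and miR-457 family of rainbow trout eggs was taken from the deposited table of known miRNAs as every name numbered miR-15, miR-16, miR-195, miR-457 or miR-497, with both arms and all sequences. The rule found 20 of the 575 names and 39 of the 1059 sequences of that table. No name of miR-195 or miR-497 was listed. The eggs came from females of commercial rainbow trout (Oncorhynchus mykiss) populations held in spring water and were taken 1, 7 and 14 days after ovulation (D1PO, D7PO and D14PO), for which the labels give survival rates of 91.8% (D1PO), 73.4% (D7PO) and under 50% (D14PO). The study's methods describe the same figures as fertilization rates, scored from cleavage of embryos. Each age was 1 library of small RNA made from RNA pooled over females, with no treatment. The deposited number of reads carries no value for a single age, so the ages could not be compared here, and no value below has an error between samples.

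The miR-15 and miR-16 miRNAs are known in vertebrates as a family because their 5p arms share a seed, the bases 2 to 8 from the 5′ end with which a miRNA pairs to its target mRNAs. In mammals they repress genes of the cell cycle and of cell survival, cyclins and BCL2 among them, and miR-15 and miR-16 genes lie side by side so that 1 transcript yields both. miR-457 is a fish member of the family. A hairpin yields a 5p and a 3p arm, and the arm that is kept is usually the more abundant.

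The family was read mainly as miR-16. Its 4 main 5p sequences are shown because they held 62.0% of the family's reads (95% interval 61.4 to 62.5), with the seed in capitals, in RNA letters and from 5′ to 3′.
omy-miR-16a-5p: uAGCAGCAcguaaauauugga
omy-miR-16c-5p: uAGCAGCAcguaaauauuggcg
omy-miR-16-5p: uAGCAGCAcguaaauauuggag
omy-miR-16b-5p: uAGCAGCAcguaaauauuggu
The main sequence of a name is the one with the most reads. These 4 are identical over their first 20 bases and differ only at the 3′ end.
The main 5p sequences of miR-15 and miR-457 are shown to compare their seeds and the bases after them.
omy-miR-15a-5p: uAGCAGCAcgucaugauuugua
omy-miR-15b-5p: uAGCAGCAcaucaugguuua
omy-miR-15c-5p: uAGCAGCGcaucaugguuuga
omy-miR-15e-5p: aGCAGCACagaaugguuugu
omy-mir-457a-5p: uAGCAGCAcaucauuacuggua
omy-miR-15c-5p has another base at the last position of the seed, A8G relative to omy-miR-16a-5p, with positions counted from 1 at the 5′ end. omy-miR-15e-5p was read mainly from 1 base further in, so that its bases 2 to 8 are not those of the other members.

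The 39 sequences held 27814 reads, and made up 0.362% of the 7684127 known miRNA reads (95% Clopper-Pearson interval 0.358 to 0.366). The intervals cover counting error only, and hold only if each deposited number adds up the reads of all 3 libraries, on which neither the labels nor the study's methods say anything. The total of the deposited known reads is larger than the miRBase-matched reads that the study's summary of its libraries adds up to, so this reading of the column is uncertain. By number, miR-16 held 18745 reads or 67.4% of the family (66.8 to 67.9), miR-15 held 8876 or 31.9% (31.4 to 32.5) and miR-457 held 193 or 0.694% (0.600 to 0.799). For the eggs as labelled, the gonad miRNA miR-202 held 4.03% of the reads of known miRNAs and miR-430 of the early embryo 0.370%. miRNAs known from other tissues were read too, with 4.36% for miR-1 and miR-133 of muscle, 2.22% for miR-451 and miR-144 of red blood cells and 0.0637% for miR-122 of liver. Their part in the reads of this family was not tested.

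omy-miR-16a-5p was the most abundant name, with 6631 reads (95% Poisson interval 6472 to 6793), and ranked 102 among the 575 known names. It was followed by omy-miR-16c-5p with 5603 reads (5457 to 5752), omy-miR-16-5p with 3641 (3524 to 3761), omy-miR-15a-5p with 3034 (2927 to 3144) and omy-miR-15b-5p with 2294 (2201 to 2390). omy-miR-16b-5p had 1987 reads (1901 to 2076), omy-miR-15c-5p 1296 (1226 to 1369) and omy-miR-15e-5p 913 (855 to 974). These 8 names are all 5p arms, and no interval of any of them overlapped that of the next name in the order.
The most abundant 3p arm was omy-miR-15a-3p with 521 reads (477 to 568), above omy-miR-15c-2-3p with 392 (354 to 433). From there on the order was less certain, because in 7 of the 19 pairs of neighbouring names the counting intervals overlapped. omy-miR-15c-2-3p could not be told apart from omy-mir-16c-5p with 346 reads (310 to 384), nor omy-mir-16c-5p from omy-mir-16b-3p with 298 (265 to 334). omy-miR-15c-3p with 208 reads (181 to 238), omy-mir-457a-5p with 193 (167 to 222), omy-miR-15b-3p with 179 (154 to 207) and omy-mir-16a-1-3p with 155 (132 to 181) each overlapped with the next of these 4. The rarest names were omy-miR-16c-3p with 69 reads (53.7 to 87.3), omy-mir-15a-3p with 22 (13.8 to 33.3), omy-mir-15a-5p with 17 (9.90 to 27.2) and omy-miR-16a-2-3p with 15 (8.40 to 24.7). The median name of the family had 369 reads, and the median of the other known names was 280.

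**Figure D1:**
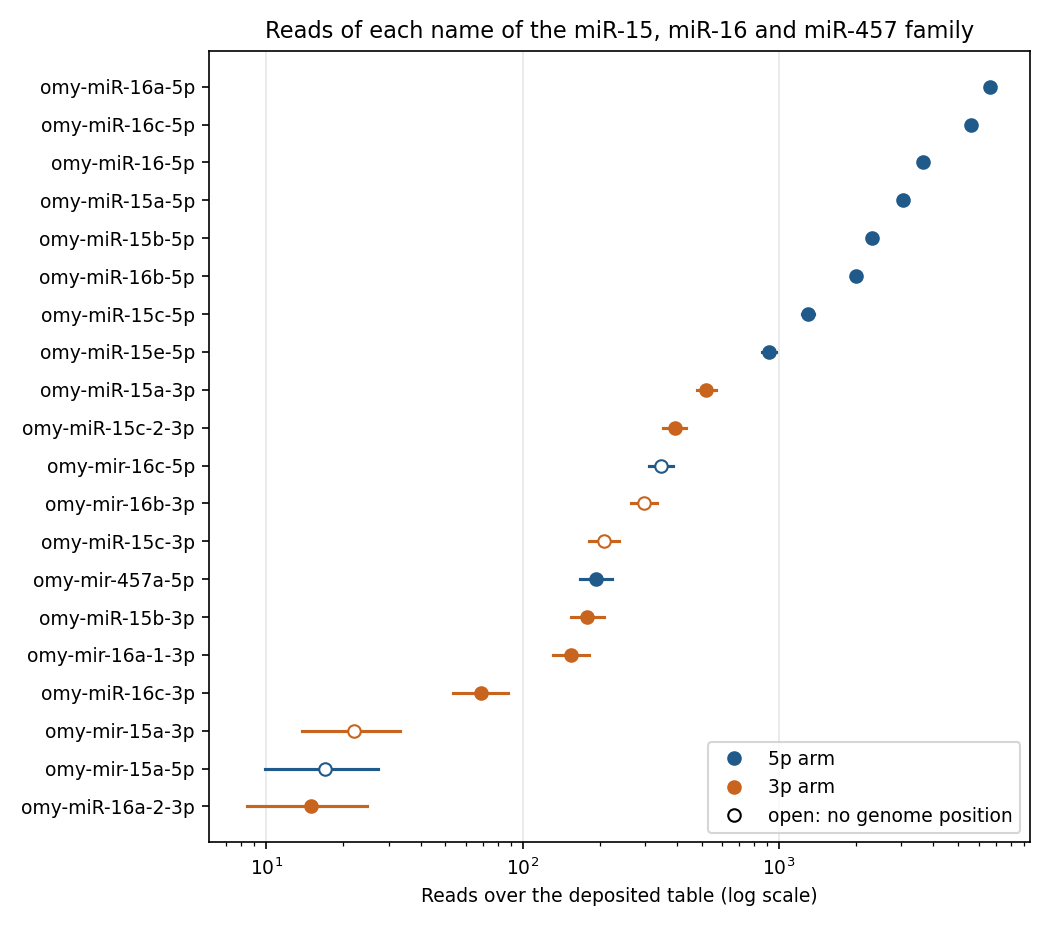
Reads of each of the 20 names over the deposited table, on a log scale, with 95% Poisson intervals as bars; blue points are 5p arms, orange points 3p arms and open points names without any genome position. The 8 most abundant names are 5p arms, led by omy-miR-16a-5p with 6631 reads, and the most abundant 3p arm is omy-miR-15a-3p with 521.

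At bases 2 to 8 of the known sequences, the seed of the family was found under its own names only. The authors named sequences by their match to miRBase, so this is in part a result of the naming. Of the 510 different strings at bases 2 to 8 among known sequences, AGCAGCA ranked 39 by reads, with 23334 reads in 16 sequences, all of them of this family. This was 83.9% of the family's reads (83.5 to 84.3) and 89.9% of its 5p reads (89.5 to 90.3). AGCAGCG of omy-miR-15c-5p held 4.66% of the family's reads, and GCAGCAC, the string at these bases of the main form of omy-miR-15e-5p, 3.20%. The remaining reads were 3p arms and sequences that do not hold AGCAGC or hold it further in.
AGCAGC, searched on the RNA strand only, was present in 21 of the 24 5p sequences and in 98.6% of the 5p reads (98.5 to 98.7). It began at base 2 in 96.2% of the reads that held it (96.0 to 96.5), at base 1 in 890 reads of omy-miR-15e-5p, and at base 3 or 5 in 3 sequences with 24, 34 and 14 reads. These 3 longer starts are shown with AGCAGC in capitals because their seeds differ from that of the name they carry.
omy-miR-16-5p, 24 reads: cuAGCAGCacguaaauauuggc
omy-miR-16-5p, 34 reads: uuauAGCAGCacguaaauauuggcg
omy-miR-16a-5p, 14 reads: auuuAGCAGCacguaaauauugg

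Outside the family, AGCAGC was found in 8 known sequences, 7 of which belong to miR-103 and miR-107, whose seed is 1 base out of step with that of miR-15 and miR-16. These 7 sequences, of 3 names, held 10872 reads and begin with AGCAGC at base 1. Their main forms are shown beside the main form of omy-miR-15e-5p, with bases 2 to 8 in capitals, because all 3 share bases 1 to 7.
omy-miR-15e-5p: aGCAGCACagaaugguuugu
omy-miR-107a-3p: aGCAGCAUuguacagggcuau
omy-miR-103-3p: aGCAGCAUuguacagggcuauga
By bases 2 to 7, the 890 reads of this omy-miR-15e-5p form therefore carry the letters of miR-103 and miR-107. The table holds 5 names and 11012 reads of miR-103 and miR-107 in all, against 20 names and 27814 reads of the miR-15, miR-16 and miR-457 family. Of miR-322, miR-424 and miR-503, family members of mammals, no name was found.

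The members differed most in the middle and at the 3′ end. With AGCAGC placed at positions 2 to 7, the 21 sequences with 25592 reads also shared the same base at positions 9, 13 and 18. At position 8 the commonest base was in 94.9% of the reads, all others being omy-miR-15c-5p. At position 14 it was in 69.8%, which are exactly the 17862 reads of miR-16, and all reads of miR-15 and miR-457 have another base there. This is A14U relative to omy-miR-16a-5p. At positions 15 and 19 the commonest base was in 70.5%, the 18055 reads of miR-16 and miR-457 together. omy-mir-457a-5p thus has the miR-16 base at positions 15 and 19 and the miR-15 base at position 14. It differs from omy-miR-16a-5p by 5 of 21 bases, G10A, A12C, A14U, U17C and A21U, and from the main sequence of omy-miR-15b-5p by 5 of 20. That omy-miR-15b-5p sequence ends at base 20, so later positions were not compared. The main sequence of omy-miR-15a-5p has A12C, A14U and A21U too. It lacks G10A and U17C, and has U15G and G19U instead. The 2 counts above therefore do not place omy-mir-457a-5p equally far from miR-16 and from miR-15 as a whole.

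**Figure D2:**
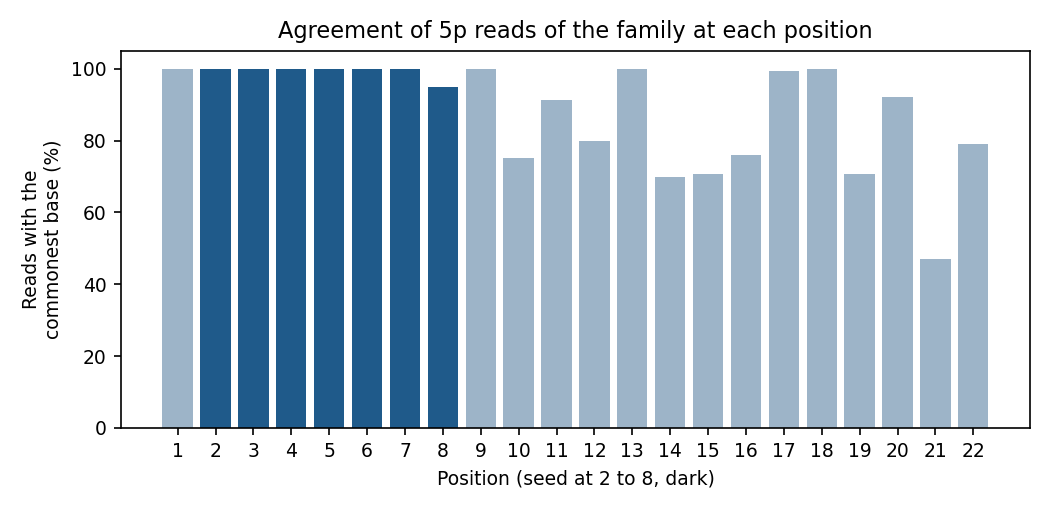
Percent of 5p reads of the family with the commonest base at each position, from the 5′ end, for the 21 sequences that hold AGCAGC, aligned with AGCAGC at positions 2 to 7; the seed is dark. Positions 9, 13 and 18 are shared by all reads, while 69.8% share the base at position 14 and 46.9% that at position 21.

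omy-miR-15a-5p was the most mixed name, with 6 sequences of 3 kinds. Its main form, with 1385 reads or 45.6% of the name, is placed on chrUn_29. The form placed on chrUn_22 is shown because it differs from it by 4 of 21 bases, G10A, U11G, C12A and A16G. The main forms of omy-miR-15a-5p and omy-miR-15b-5p differ from each other by 3 of 20 bases. That of omy-miR-15b-5p ends at base 20, so the 2 counts are not of equal length. At base 21 the longer omy-miR-15b-5p form with 922 reads also differs from the main form of omy-miR-15a-5p.
omy-miR-15a-5p on chrUn_29, 1385 reads: uAGCAGCAcgucaugauuugua
omy-miR-15a-5p on chrUn_22, 858 reads: uAGCAGCAcagaaugguuugu
omy-miR-15a-5p on chrUn_22, 334 reads: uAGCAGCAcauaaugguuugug
The last of these is given the same hairpin position as the form with 858 reads and differs from it by G11U. The other 3 sequences are 3′ variants, with 407, 27 and 23 reads.
omy-miR-15b-5p was read as 3 sequences with 1073, 922 and 299 reads. The sequences with 922 and 299 reads are given 1 hairpin position and differ by G16U and A20G. The main sequence, with 1073 reads, is the first 20 bases of the one with 922 reads, but is listed without a genome position.
omy-miR-15b-5p, 922 reads: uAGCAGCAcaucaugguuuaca
omy-miR-15b-5p, 299 reads: uAGCAGCAcaucauguuuugca

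Reads of close names could not be separated by sequence alone. The main form of omy-miR-16a-5p, with 6617 reads, is the first 21 bases of the main form of omy-miR-16-5p, with 3583 reads, although the table places them on chrUn_22 and chrUn_12. The main form of omy-miR-15e-5p lies, from base 2, within 3 sequences of omy-miR-15a-5p with 858, 407 and 27 reads. The 23 other reads of omy-miR-15e-5p begin with another base, U1A in the numbering of omy-miR-16a-5p. omy-miR-16c-5p is contained in the 34-read sequence of omy-miR-16-5p placed at the same hairpin. Of the 17862 miR-16 reads that hold AGCAGC, 37.0% (36.3 to 37.8) ended in A after the shared 20 bases, 31.6% (30.9 to 32.2) in CG, 20.1% (19.5 to 20.7) in AG, 8.01% (7.62 to 8.42) in U and 3.11% (2.86 to 3.38) in UG, whatever their 5′ start. The other 24 and 14 reads ended in C or with the shared bases. The ends A and AG can thus come from the same gene, as can U and UG, and the share of each gene in them was not tested.

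The 30 sequences with a genome position fall into 12 hairpins on 8 chromosome names of the authors' trout genome, of a build that neither the table nor the methods name. At 3 places a miR-15 and a miR-16 hairpin lie on the same strand within 10000 bases of each other, and at each of them miR-15 comes first in the direction of the strand. On chrUn_24, minus strand, miR-16 from 2442535 to 2442657 follows miR-15 from 2442689 to 2442749 after 31 bases. That miR-16 span joins the position of omy-miR-16c-5p, 2442535 to 2442598 with 5603 reads, with those of 2 omy-miR-16-5p sequences. These 2 sequences have only 24 and 34 reads, and without them the gap to miR-15 is wider. On chrUn_22, minus strand, miR-16 from 288498 to 288579 follows miR-15 from 288674 to 288781 after 94 bases. That miR-15 span joins 288674 to 288734, the position of the forms with 858, 407 and 334 reads, with that of a 27-read form. The 27-read form, from 288699 to 288781, widens the span but leaves the gap to miR-16 unchanged. On chrUn_12, plus strand, miR-16 from 19259623 to 19259685 follows miR-15 from 19259148 to 19259208 after 414 bases. Positions of sequences that overlapped on 1 strand were joined into 1 hairpin, also where the names differ, as on chrUn_24 and chrUn_3. On chrUn_3 the 2 joined sequences are both named 3p but have unlike bases, so they need not come from 1 hairpin.
By the position listed for each sequence, the miR-16 arm was read about 4 times as often as the miR-15 arm beside it at all 3 places. Each sequence is listed at a single position, so reads of the same sequence from another gene would be counted there too. On chrUn_24 no 3p reads of miR-16 were listed, and omy-miR-16c-3p, with 69 reads, was placed on chrUn_3. The share of each gene in these reads was not tested. The 5p reads were 5661 for miR-16 and 1296 for miR-15 on chrUn_24, a ratio of 4.37 (95% interval 4.11 to 4.64). They were 6617 and 1626 on chrUn_22, a ratio of 4.07 (3.85 to 4.30), and 3583 and 913 on chrUn_12, a ratio of 3.92 (3.65 to 4.22). The 1626 reads include 334 of a form that differs by G11U from the 858-read form listed at the same position. A ratio without these 334 reads would be higher, and was not computed. The intervals of chrUn_22 overlapped with those of both other places, and that of chrUn_24 overlapped with that of chrUn_12. The places on chrUn_12 and chrUn_22 share reads by sequence, as given above. Pooled, a choice made after seeing the data, they held 10200 miR-16 and 2539 miR-15 reads, a ratio of 4.02 (3.85 to 4.20). Without every sequence that is contained in or contains a sequence of another family name, the ratio was 0 on chrUn_12 and chrUn_22 and 0.0185 on chrUn_24, because the main miR-16 sequences are then left out. These ratios follow from that removal. On chrUn_24, omy-miR-16c-5p is left out because the 34-read sequence of omy-miR-16-5p at the same hairpin contains it.
The fourth place pairs miR-457 with miR-15. On chrUn_21, minus strand, miR-457 from 12766648 to 12766742 follows miR-15 from 12768938 to 12768999 after 2195 bases. It was read less often than miR-15, with 193 reads of omy-mir-457a-5p and 1221 reads of omy-miR-15b-5p, a ratio of 0.158 (0.135 to 0.184). The 1073 reads of omy-miR-15b-5p without a position are not in this count. The 1221 reads join forms with 922 and 299 reads, which differ by G16U and A20G though listed at 1 position. A ratio to the 922-read form alone would be higher, and was not computed.

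**Figure D3:**
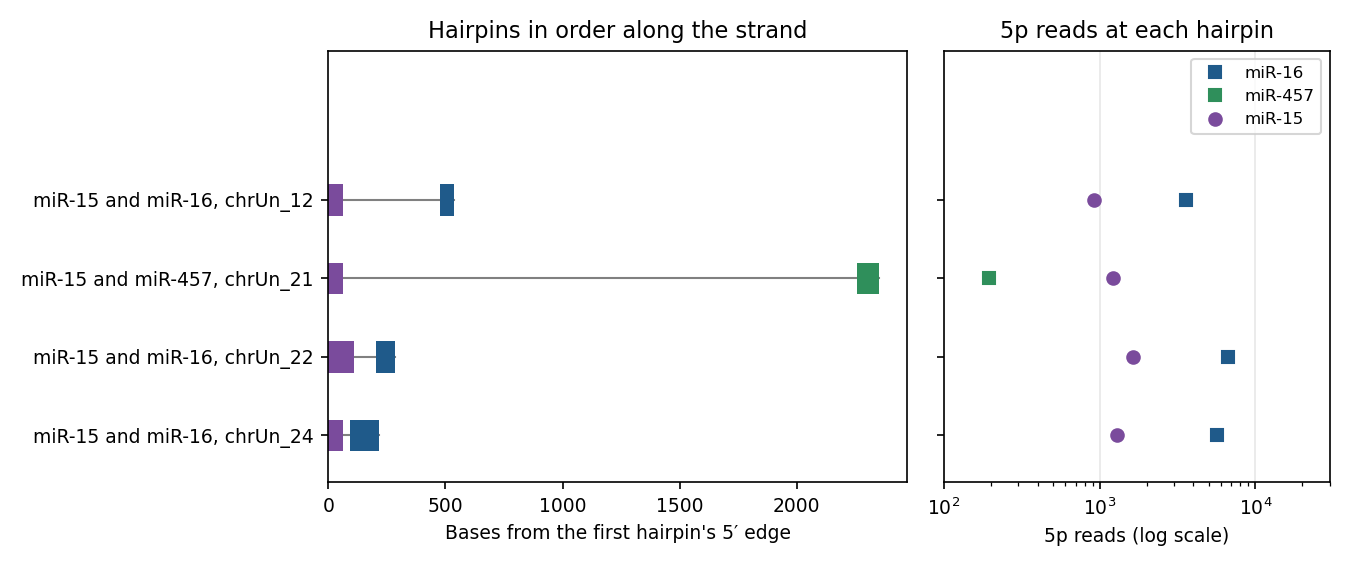
Left, the 4 places where 2 hairpins of the family lie near each other, drawn to scale in bases from the 5′ edge of the first hairpin along the strand; right, the 5p reads of each hairpin on a log scale, with squares for miR-16 and miR-457 and circles for miR-15. miR-16 lies above miR-15 at 3 places, by ratios of 3.92 to 4.37, and miR-457 below miR-15 on chrUn_21. Overlapping positions are drawn joined, which widens miR-16 on chrUn_24 and miR-15 on chrUn_22, and each sequence is counted at its listed position only.

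The remaining hairpins have no listed partner of the family. omy-miR-16b-5p lies on chrUn, plus strand, from 87412613 to 87412674, with 1987 reads. The most abundant form of omy-miR-15a-5p lies with omy-miR-15a-3p on chrUn_29, minus strand, from 8195487 to 8195596. On chrUn_9, plus strand, from 14340504 to 14340589, and on chrUn_3, minus strand, from 185244 to 185361, the table places 3p arms only, 115 reads of omy-miR-15b-3p and 224 reads of omy-miR-16c-3p and omy-mir-16a-1-3p.

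The family was read from its 5p arm. The 3p arm held 1859 reads or 6.68% of the family (6.39 to 6.98), against 60.3% of the reads of all other known miRNAs (60.2 to 60.3), and this difference is larger than the counting error. By names the 3p arm made up 9 of 20 in the family (45.0%, 23.1 to 68.5) and 290 of 555 in the rest (52.3%, 48.0 to 56.5), with overlapping intervals. Within the family, the 3p arm held 537 reads or 2.86% of miR-16 (2.63 to 3.11) and 1322 reads or 14.9% of miR-15 (14.2 to 15.7). The 537 reads include the 298 of omy-mir-16b-3p, a sequence without a genome position, and the 155 of omy-mir-16a-1-3p. These 2 sequences share no string at bases 2 to 8 with each other or with the other 3p names of miR-16. Only the 84 reads of omy-miR-16a-2-3p and omy-miR-16c-3p share one, so the 3p share of miR-16 rests mostly on unlike sequences.
Of the 12 hairpins, 4 had listed reads of both arms. The authors removed low-copy sequences, and the least-read sequence of the family had 14 reads. An arm without listed reads can thus have been read below that limit. Its reads can also be listed at another hairpin or without a position, because each sequence has a single listed position. This limits the 5p shares below too. The 1073 reads of omy-miR-15b-5p without a position are not counted on chrUn_21. On chrUn_12 the 5p arm of miR-16 held 99.6% of 3598 reads (99.3 to 99.8), on chrUn_21 that of miR-15 held 1221 of 1285 (93.7 to 96.1%), on chrUn_24 that of miR-15 held 76.8% of 1688 (74.7 to 78.8) and on chrUn_29 that of miR-15 held 72.7% of 1906 (70.6 to 74.7). The intervals of chrUn_24 and chrUn_29 overlapped, and those of chrUn_21 and chrUn_12 lay above them and apart from each other. With 1 sequence per name, the 5p share was 86.5% on chrUn_24 and 82.0% on chrUn_29, and 0% on chrUn_21, where the main 5p sequence has no position. On chrUn_24 and chrUn_29 the 5p arm has only 1 sequence, so this setting removed 3p reads alone and the share could only rise.
The 3p arms are shown with bases 2 to 8 in capitals because no seed is common to most of them. Among 5p reads, AGCAGCA held 89.9%.
omy-miR-16a-2-3p, chrUn_12: cCAGUAUUgacggugcuguuga
omy-miR-16c-3p, chrUn_3: cCAGUAUUgcucgugcugcugaa
omy-miR-15a-3p, chrUn_29: aGACCAUGaagagcugcugcu
omy-miR-15b-3p, chrUn_21: cAAAUCAUuaugugcugccgcu
omy-miR-15b-3p, chrUn_9: cAAAUCAUgaugugcugucacu
omy-miR-15c-2-3p, chrUn_24: uGCGAACCaucauuugcugcuu
omy-miR-15c-3p, no position: cGAAUCAUuauuugcugcucu
omy-mir-16a-1-3p, chrUn_3: uUAAAACUacugcugaagccu
CAGUAUU was shared by omy-miR-16a-2-3p and omy-miR-16c-3p, with 84 reads together, and AAAUCAU by the chrUn_21 form of omy-miR-15b-3p with 64 reads and the printed chrUn_9 form with 51. The other 2 forms on chrUn_9, with 32 reads each, begin 1 base earlier and have CAAAUCA there. When the main 5p and 3p sequences of 1 hairpin were folded together, 19 of 22 bases of the 5p arm paired on chrUn_12, 17 of 21 on chrUn_24, 16 of 22 on chrUn_21 and 12 of 22 on chrUn_29, at -22.9, -21.3, -21.7 and -17.3 kcal/mol. Of the 7 seed bases, 7 were paired on chrUn_12 and chrUn_24 and 6 on chrUn_21 and chrUn_29.

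**Figure D4:**
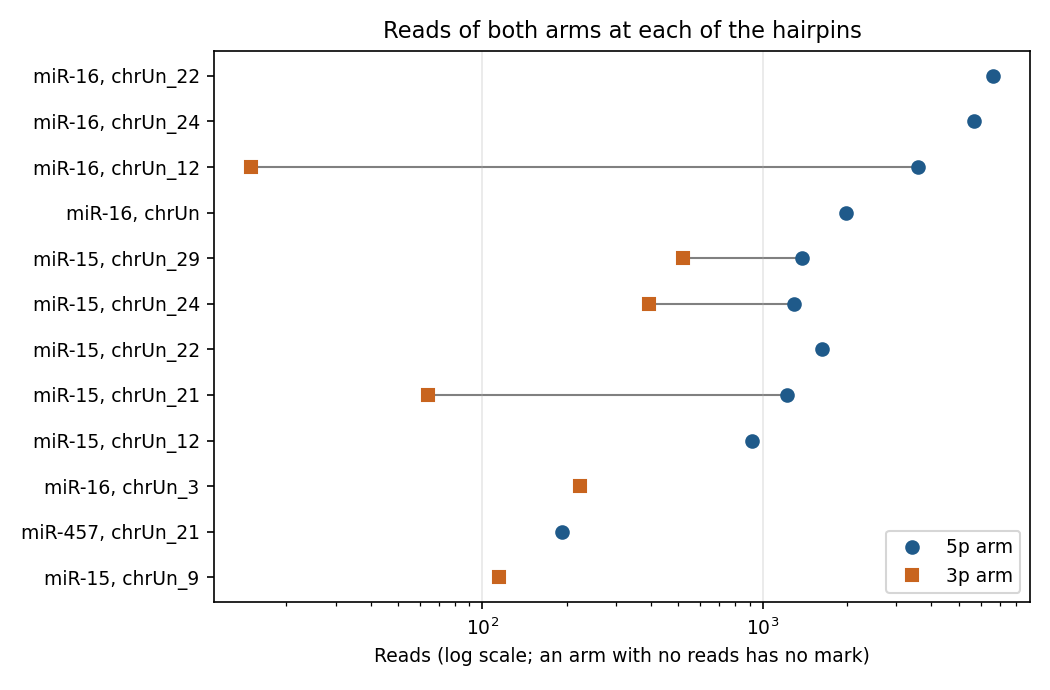
Reads of the 5p arm (blue circles) and the 3p arm (orange squares) at each of the 12 hairpins, on a log scale, with a line joining both arms of 1 hairpin; an arm with no reads has no mark. On chrUn_29 and chrUn_24 the 3p arms of miR-15 lie closest to the 5p arms, with 521 and 392 reads, and on chrUn_12 the 3p arm of miR-16 has 15. Low-copy sequences were removed by the authors, so an arm without a mark can have been read below that limit. Its reads can also be listed at another hairpin or without a position. The chrUn_3 mark joins omy-miR-16c-3p and omy-mir-16a-1-3p.

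Names written mir in lower case were often listed without a genome position. Of the 6 such names, 4 have no genome position, and the same holds for 101 of 163 names written mir among the other known miRNAs (62.0%, 54.0 to 69.4). Of names written miR it was 1 of 14 in the family and 14 of 365 in the rest, let-7 names not counted. The sequences of the 4 names are shown because they are listed without a genome position. Whether they occur in the trout genome was not tested. Of the 2 names that are 5p arms, omy-mir-16c-5p and omy-mir-15a-5p, neither holds AGCAGC, while no 3p sequence of the family holds it.
omy-mir-16c-5p, 185 reads: gUGUGUGUgugugugugu
omy-mir-16c-5p, 161 reads: uGUGUGUGugugugugugu
omy-mir-16b-3p, 298 reads: cGUCGGCGggggccucggg
omy-mir-15a-3p, 22 reads: cUGAGAUAcgggcca
omy-mir-15a-5p, 17 reads: uCUGGUGAugcuguagg
Both sequences of omy-mir-16c-5p alternate between G and U throughout, and 89.5% of the bases of omy-mir-16b-3p are G or C. The names written mir held 1031 reads or 3.71% of the family (3.49 to 3.94). The only 2 with a position are omy-mir-457a-5p, which has the full seed, and omy-mir-16a-1-3p, whose hairpin on chrUn_3 overlaps that of omy-miR-16c-3p.
Sequences without a genome position held 2001 reads or 7.19% of the family (6.89 to 7.50), against 2.10% of the rest (2.09 to 2.11). Of these 2001 reads, 1110 were in 3 sequences that hold AGCAGC, the 20-base form of omy-miR-15b-5p with 1073 reads among them, and 891 in 6 sequences that do not. By sequences, 9 of 39 in the family and 221 of 1020 in the rest had no position. Sequences 20 to 24 nt long held 97.4% of the family's reads (97.2 to 97.6), and 91.2% of its reads began with U (90.9 to 91.5), against 95.7% and 82.7% of the reads of the rest.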

How the data were processed

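Small RNA of trout eggs was sequenced by the authors on an Illumina GAIIx as 1 pooled library per age. The deposited counts are reads per unique sequence, made by the authors with ACGT101-miR 3.5, which removed low-quality, low-copy, adapter and simple sequences and matches to mRNA, Rfam and Repbase and compared the rest with miRBase release 21. The count column names no library. No source used here names the genome build behind the positions.

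Members were matched by number in the name, with spaces removed, and the members and lists were chosen with earlier results of these data known. Every name of the family is named, and the main sequence of each name with at least 100 reads is printed. Exact Poisson intervals for reads, Clopper-Pearson intervals for shares and conditional binomial intervals for ratios were computed at 95%, and tested on simulated data. Hairpins within 10000 bases on 1 strand were paired. Arms were folded with the duplex function of ViennaRNA 2.7.2. No p-value is given, because each age has 1 library. Sequences are those of the deposited tables. Intervals were computed with SciPy 1.17.1 and pandas 2.3.3 in Python 3.11.15, and plots with matplotlib 3.10.9.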

Additional observations from a re-analysis of the deposited data

How the results depend on the processing

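Of 48 alternatives, 45 planned and 3 added after seeing the data, 24 stayed within the counting interval of the value given above. This count is no measure of stability. Some of the 24, such as the ratio on chrUn_12 with 20 to 24 nt only, kept exactly the same reads and could not move. The 3 added ones are poolings that include the place they are compared with, and that of chrUn_12 and chrUn_22 is counted for both. The family's share of known reads was 0.343% with genome positions only, 0.369% with 20 to 24 nt only, 0.419% with 1 sequence per name, 0.321% with members taken by AGCAGC at bases 2 to 7 and 0.347% of known and predicted reads. Its 3p share was 5.16% with positions only, 5.68% with 20 to 24 nt, 6.38% with at least 50 reads, 5.67% with 1 sequence per name and 5.17% with names written miR. The share of AGCAGCA was 86.2%, 86.1%, 84.4% and 86.4% with positions only, 20 to 24 nt, at least 50 reads and names written miR. miR-16 held 70.7% of the 5p reads of miR-16 and miR-15, 73.5% with positions only, 78.9% with 1 sequence per name and 30.6% without sequences shared between names. All of this sharing is within miR-16 or within miR-15. The 30.6% therefore says nothing on reads shared between miR-16 and miR-15. The ratio of miR-16 to miR-15 was 0 on chrUn_12 and chrUn_22 and 0.0185 on chrUn_24 without shared sequences. This follows from removing the main miR-16 sequences of these places. The 5p share was 100% on chrUn_12 with at least 50 reads, where the 3p arm is then left out. With 1 sequence per name it was 0% on chrUn_21, where the main 5p sequence has no position, 86.5% on chrUn_24 and 82.0% on chrUn_29. The rises on chrUn_24 and chrUn_29 follow from the setting, which removed 3p reads only. With 1 sequence per name no ratio could be had on chrUn_22. No paired analysis was possible because there was 1 library per age, and the counts do not separate them. Leaving out a replicate and other normalizations need counts of single libraries and were not run. Names of under 30 reads have counting intervals too wide to order them.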

Other observations

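AGCAGC also occurred away from the 5′ end in 4 sequences that carry no number of the family. These are omy-miR-462b-5p with 680 reads, where it begins at base 16, and 3 predicted miRNAs, omy-miR-nov-178-5p with 715 reads at base 21, omy-miR-nov-122-3p with 467 at base 14 and omy-miR-nov-27-3p with 316 at base 20. Their bases 2 to 8 are not those of the family.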
